A study of Homo sapiens with 16 samples.

Results

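The 9 genes described here belong to the MHC class I pathway: the heavy chains HLA-B, HLA-C, HLA-E and HLA-F, the light chain B2M, the transporter subunits TAP1 and TAP2, the loading factor tapasin (TAPBP) and the trimming aminopeptidase ERAP1. They were listed by symbol with earlier results of these data known, and all 9 were found among the 60669 genes of both deposited tables. The cells were HMC3, an established human cell line labelled as microglial. They were either wild type or labelled as knockout for METTL3, the catalytic subunit of the enzyme complex that places N6-methyladenosine (m6A) on messenger RNA. The labels name no treatment, clone or guide, and give no difference between the groups other than genotype. Of 16 libraries, 5 wild-type and 5 knockout-labelled ones were made from poly(A) RNA by Smart-seq2, and 3 and 3 were strand-specific libraries of rRNA-depleted total RNA.

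MHC class I molecules show peptides from inside the cell to CD8 T cells. Each is a heavy chain held together with beta-2-microglobulin, the product of B2M. Peptides cut by the proteasome are pumped into the endoplasmic reticulum by the TAP1 and TAP2 heterodimer, trimmed there by ERAP1, and exchanged on the heavy chain with the help of tapasin. Most genes of the pathway are induced by interferons. HLA-B and HLA-C are classical heavy chains, whereas HLA-E and HLA-F are nonclassical ones, and HLA-E is a ligand of the NKG2A receptor of NK cells.

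The poly(A) libraries are represented by the authors' deposited table of 1 comparison, which gives a log2 fold change and an adjusted p for each gene and no value for a single library. The table does not name the numerator of its fold change. It was taken as knockout label over wild type, and if it were the reverse, every poly(A) direction below would be opposite. The rRNA-depleted libraries are represented by TPM, a length-scaled transcript abundance that is a share of each library. They held 266133 to 1267170 reads assigned to genes, as recovered from the TPM values. The knockout-labelled libraries 1 and 2 differed by no more than sampling noise (chi-square test over 10117 genes, p = 0.0687) and were counted as 1 sample, so that 3 wild-type samples were compared with 2 knockout-labelled ones. Nothing in the labels says that the libraries came from separate cultures, so the p-values measure the spread between these samples, which may be technical. METTL3 mRNA was at 31.2, 31.6 and 25.4 TPM in wild type and at 39.2, 39.96 and 42.7 TPM under the knockout label, so its level does not check the label. Of 13 microglial markers, 10 were at 0 in all 6 libraries, AIF1, CX3CR1, P2RY12, TMEM119, ITGAM and PTPRC among them, and the summed TPM of the 13 was 0 to 6.47 in wild type and 0.532 to 5.24 under the knockout label. The summed TPM of 10 fibroblast and pericyte markers was 11190.5 to 13630 in wild type and 3353 to 3477 under the knockout label, most of the difference in COL1A1 (9612 to 11995 and 749 to 865 TPM). Of the 6 of them tested, 3 were lower and 2 higher, FN1 and THY1 (limma, adjusted p under 0.05). Markers of T and NK cells, of B cells and of endothelium, each list taken alone, summed to less than 2 TPM in every library. The part of these shifts in the results below was not tested, and in bulk RNA fewer cells of a type cannot be told apart from less RNA per cell.

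The light chain gene B2M was the member with the largest difference between the rRNA-depleted libraries, 7.98-fold higher under the knockout label, and it was also higher in the poly(A) comparison. HLA-B moved in opposite directions, 2.15-fold lower in the rRNA-depleted libraries and 3.37-fold higher in the authors' deposited table for poly(A) RNA. Among the 9 members 7 were higher there at an adjusted p under 0.05 (HLA-B, HLA-C, HLA-E, HLA-F, B2M, TAP1 and ERAP1), none was lower, and TAP2 and TAPBP did not pass. The authors' deposited table called 9.55% of its 14009 genes with an adjusted p higher and 10.3% lower. The median log2 fold change of the members there was 0.84, beside 0.02 for all genes. Since the members were chosen with earlier results of these data known, this comparison with all genes is a description and no test.

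In the rRNA-depleted libraries B2M and ERAP1 were higher, HLA-B was lower and the other 6 members did not pass an adjusted p of 0.05 (limma on log2(TPM + 1), Benjamini-Hochberg over 14789 genes). Among all genes tested, 22.9% were higher and 12.4% lower, so 3 of 9 is close to the 35.3% called in either direction. All 9 members passed the filter of 1 TPM in 3 libraries, HLA-F with at most 2 reads in any library. The median log2 change of the members was 0.17, beside 0.41 for all genes, and 4 of the 9 exceeded 0.41. The value of 0.17 counts HLA-F at a fitted −0.35, which rests on those few reads and is no measure of change. With HLA-F left out, the middle of the members falls between HLA-C (0.17) and TAP1 (0.52). That range includes 0.41, so no shortfall of the members is read from these medians. The 3 and 3 libraries did not overlap for 6 members, and for 58.4% of all genes. B2M, TAP2 and ERAP1 were higher and HLA-B, HLA-E and TAPBP lower, where 38.4% of all genes were higher and 19.9% lower without overlap. The split of calls depended on the scaling: 3382 genes were higher and 1838 lower as deposited, against 2364 and 2499 after median ratio scaling, 2788 and 2168 after scaling to the 75th percentile, 2668 and 2430 after quantile normalization, 1636 and 2260 with the trend in GC content removed, and 3864 and 3509 with voom on recovered reads. The median log2 change of all genes was 0.41 as deposited, 0.11 after median ratio scaling, 0.24 after scaling to the 75th percentile and 0.08 after quantile normalization.

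**Figure D1:**
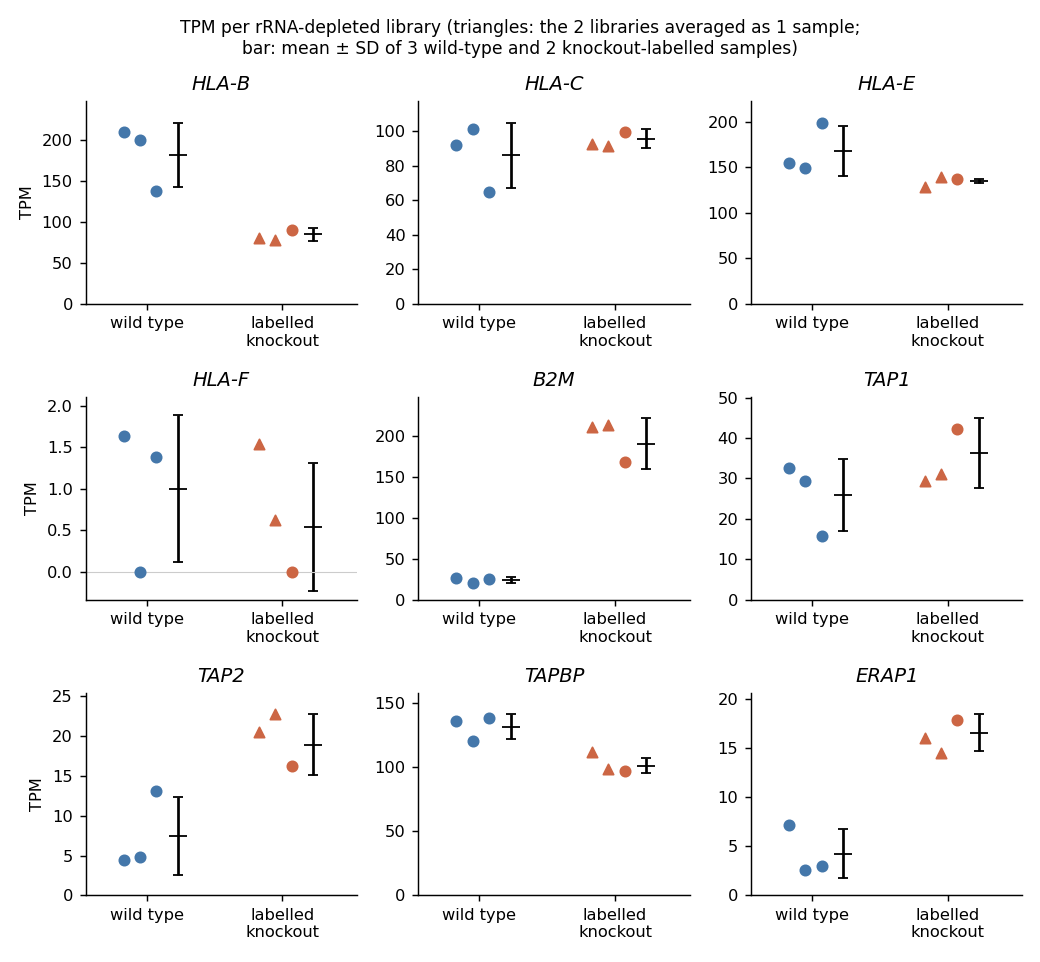
TPM of each member (y axes, from 0 except for HLA-F) in the 3 wild-type and 3 knockout-labelled rRNA-depleted libraries, with points for libraries, triangles for the 2 libraries counted as 1 sample, and bars for the mean ± SD over 3 and 2 samples. B2M and ERAP1 are higher and HLA-B lower under the knockout label without overlap, whereas the libraries of HLA-C and TAP1 overlap.

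The stretches upstream of HLA-B, HLA-C and B2M are shown because they hold the elements for which this pathway is known. RefSeq promoter windows (GRCh38.p14, 250 bases before to 50 bases after the start, 300 bases) were given for 8 members, and HLA-E is named only. Capitals mark, on either strand, GGGANNNNCC (the core bound by NF-kB), AANNGAAA (the core bound by interferon regulatory factors) or its longer form GAAANNGAAA, and TGACG with the ATTGG that follows within 35 bases, letters like those of the X2 and Y boxes of MHC promoters. The letters were chosen after the sequences had been seen, and the short and long interferon forms overlap each other. The strand printed is that of the gene.
HLA-B promoter, chr6:31357246-31357366, minus strand: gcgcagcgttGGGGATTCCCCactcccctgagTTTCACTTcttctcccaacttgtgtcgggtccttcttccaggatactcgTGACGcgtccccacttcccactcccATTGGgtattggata
HLA-C promoter, chr6:31272158-31272290, minus strand: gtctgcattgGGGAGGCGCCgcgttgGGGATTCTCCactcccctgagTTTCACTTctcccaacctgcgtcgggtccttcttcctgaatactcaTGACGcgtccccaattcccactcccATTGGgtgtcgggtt
B2M promoter, chr15:44711363-44711482, plus strand: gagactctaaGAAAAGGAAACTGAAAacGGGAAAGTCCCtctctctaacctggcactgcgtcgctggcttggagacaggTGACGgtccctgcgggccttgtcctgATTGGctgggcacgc

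These 3 promoters were the only members with the TGACG and ATTGG pair, which 0.399% of 35116 promoter windows of the same length hold. The interferon core AANNGAAA was found in all 8 members with a window, and in 22.8% of all windows. The longer GAAANNGAAA was found in 6 members (B2M, ERAP1, HLA-F, TAP1, TAP2 and TAPBP) and in 3.57% of all windows. It was not found in the windows of HLA-B and HLA-C, which hold 1 short core each. GGGANNNNCC was found in 6 members (B2M, ERAP1, HLA-B, HLA-C, TAP1 and TAPBP) and in 25.6% of all windows. The interferon sites of the other members are given with the same letters in capitals. They were picked by those letters, so their likeness is no result. That of ERAP1 lies at bases 3 to 12 from the start, and the short cores in its second window are not printed.
HLA-F site, chr6:29723272-29723293, plus strand: ccagagTTTCTCTTTCtctccc
TAP1 site, chr6:32853817-32853844, minus strand: ggccgcTTTCGATTTCGCTTTCccctaa
TAP2 site, chr6:32838782-32838807, minus strand: ctggggAAGCGAAAGCGAAAgctgcc
TAPBP site, chr6:33314077-33314104, minus strand: ttggagGAAAGTGAAAGTGAAAggagga
ERAP1 site, chr5:96807928-96807949, minus strand: ctccacTTTCACTTTCggtcct
A match of letters is a description of the sequence, and factor binding was not measured.

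HLA-B (ENSG00000234745, chr6:31269491-31357188, minus strand, GENCODE 29 on GRCh38) encodes a classical heavy chain. It had 209, 199 and 137 TPM in wild type and 80.1, 78.2 and 90.1 TPM under the knockout label, from 42 to 89 reads per library. All 3 knockout-labelled libraries lay below all 3 wild-type libraries, of which the third was the lowest. HLA-B averaged 182 ± 39.1 TPM in wild type (SD, n = 3) and 84.6 ± 7.70 TPM under the knockout label (SD, n = 2). This was a log2 change of −1.07 (SE 0.22, 95% interval −1.62 to −0.53), with a limma adjusted p of 0.0168. Without knockout-labelled library 3 the change was −1.17 and the limma adjusted p was 0.126, in a fit that has 1 knockout-labelled sample and called 1663 genes in place of 5220. For poly(A) RNA the authors' deposited table gave HLA-B a log2 fold change of 1.75 (SE 0.11, 95% interval 1.54 to 1.963) with an adjusted p of 8.48e-58 at a mean normalized count of 170. Of the 3 members called in both library types, it was the 1 called in opposite directions. Opposite calls were not particular to it, since only 67.3% of the 1327 genes called in both types had the same sign. They were less common among the 177 of these genes that, like HLA-B, changed by 1 or more on the log2 scale in each type. Of those, 91.5% had the same sign. The difference between the types was not tested, since they are on different scales.

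HLA-C (ENSG00000204525, chr6:31268749-31272130, minus strand), the other classical heavy chain, was at 91.95, 101.7 and 65.1 TPM in wild type and at 92.9, 91.3 and 99.7 TPM under the knockout label. The groups overlapped. The log2 change was 0.17 (SE 0.22, 95% interval −0.37 to 0.72; limma adjusted p 0.565), and its sign turned under 2 scalings, to −0.18 after median ratio scaling and −0.02 after scaling to the 75th percentile. The interval covers changes in either direction. HLA-C was higher in the authors' deposited table, by 0.98 on the log2 scale (SE 0.10, adjusted p 3.92e-19).

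HLA-E (ENSG00000204592, chr6:30489467-30494205, plus strand) was at 155, 150 and 199 TPM in wild type and at 128, 139 and 137 TPM under the knockout label. The knockout-labelled libraries lay below the wild-type ones without overlap. HLA-E had a log2 change of −0.30 (SE 0.16, 95% interval −0.69 to 0.10) and did not pass (limma adjusted p 0.198), although it was called lower after median ratio scaling at −0.65 (limma adjusted p 0.0282), after scaling to the 75th percentile at −0.49 (0.0494) and with voom on recovered reads at −0.60 (0.00245). HLA-E rose in the authors' deposited table by a log2 fold change of 0.24 (SE 0.09, adjusted p 0.0304), the smallest of the members called there.

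HLA-F (ENSG00000204642, chr6:29722775-29738528, plus strand) was near the limit of these libraries. It was listed at 1.63, 0 and 1.38 TPM in wild type and at 1.54, 0.631 and 0 TPM under the knockout label, which is at most 2 reads in each library. Both groups lay at or below 3 reads, the limit that a count of 0 allows, so no fold is given or drawn. The authors' deposited table called it higher at a log2 fold change of 2.16 (SE 0.82, adjusted p 0.0457) and a mean normalized count of 2.78.

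The 4 heavy chains together summed to 403 to 458 TPM in wild type and to 303 to 327 TPM under the knockout label, without overlap. HLA-B made up 34.0 to 45.7% of that sum in wild type and 25.3 to 27.6% under the knockout label. HLA-C went the other way, from 16.2 to 22.6% to 29.5 to 30.7%. The share of HLA-E overlapped, at 33.2 to 49.5% and 41.9 to 44.97%. In the authors' deposited table the log2 fold change of HLA-B (1.75) exceeded those of HLA-C (0.98) and HLA-E (0.24). That of HLA-F (2.16) was larger but rested on a mean normalized count of 2.78. The lower share of HLA-B is thus described for the rRNA-depleted libraries only. The wild-type library 3 differed from the other wild-type libraries in the makeup of the rRNA-depleted libraries. HLA-B stood at 0.688 of HLA-E in it, against 1.35 and 1.33 in libraries 1 and 2 and 0.563 to 0.658 in the knockout-labelled libraries.

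B2M (ENSG00000166710, chr15:44711487-44718877, plus strand) encodes the light chain that pairs with class I heavy chains. It stood at 26.8, 20.4 and 24.6 TPM in wild type, from 12 to 25 reads, and at 212, 214 and 169 TPM under the knockout label, from 159 to 475 reads. The lowest knockout-labelled library was far above the highest wild-type one. B2M averaged 23.9 ± 3.23 TPM in wild type (SD, n = 3) and 191 ± 31.2 TPM under the knockout label (SD, n = 2). Its log2 change was 2.94 (SE 0.19, 95% interval 2.46 to 3.42; limma adjusted p 0.00124), at rank 577 from the highest of the 14789 genes tested. It passed the threshold under every alternative that was run. B2M in the authors' deposited table was 1.79-fold higher, a log2 fold change of 0.84 (SE 0.09, adjusted p 1.18e-20), at a mean normalized count of 2209.

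Set against the heavy chains on the TPM scale, B2M stood at 0.0453 to 0.0610 of their sum in wild type and at 0.516 to 0.699 under the knockout label. These ratios depend on gene length. TPM here follows the union of all annotated exons, which is 3.57 times the principal transcript for B2M and 1.14 to 2.66 times for the heavy chains. With reads divided by principal transcript length, which was tried once the data had been seen, the ratio was 0.0974 to 0.142 in wild type and 1.17 to 1.58 under the knockout label. The levels in the poly(A) libraries are pooled over both groups in the authors' deposited table. There B2M had 363 normalized counts per kb, HLA-E 74.3, HLA-C 60.6 and HLA-B 56.4. Its log2 fold change of 0.84 in that table was below those of HLA-B (1.75), HLA-C (0.98) and HLA-F (2.16) and above that of HLA-E (0.24). The rise of B2M over the heavy chains is thus described for the rRNA-depleted libraries only, and a ratio per group was not formed for poly(A) RNA.

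**Figure D2:**
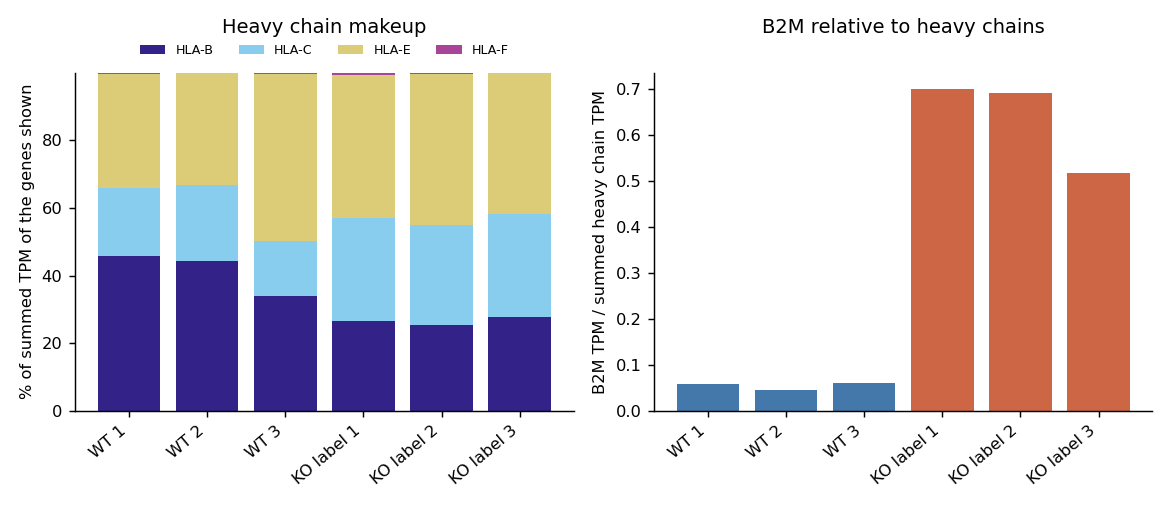
Left, the share in % of the summed TPM of HLA-B, HLA-C, HLA-E and HLA-F taken by each in every rRNA-depleted library (WT, wild type; KO label, labelled knockout); right, B2M TPM divided by that sum. HLA-B goes from 34.0 to 45.7% of the sum in wild type to 25.3 to 27.6%, and the B2M ratio goes from at most 0.0610 to at least 0.516.

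TAP1 (ENSG00000168394, chr6:32845209-32853978, minus strand), a subunit of the peptide transporter, was at 32.5, 29.4 and 15.7 TPM in wild type and at 29.3, 31.1 and 42.3 TPM under the knockout label. The groups overlapped, and the third library was the lowest of its group in wild type and the highest under the knockout label. TAP1 had a log2 change of 0.52 (SE 0.37, 95% interval −0.43 to 1.46; limma adjusted p 0.332). The authors' deposited table had TAP1 1.69-fold higher, a log2 fold change of 0.76 (SE 0.17, adjusted p 0.000175).

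TAP2 (ENSG00000204267, chr6:32821833-32838780, minus strand), its partner subunit, was at 4.43, 4.86 and 13.1 TPM in wild type, which is 4, 3 and 14 reads, and at 20.5, 22.7 and 16.2 TPM under the knockout label, from 16 to 53 reads. The groups did not overlap, but wild-type library 3 lay near the lowest knockout-labelled library. The log2 change was 1.36 (SE 0.54, 95% interval 0.00 to 2.72) and did not pass (limma adjusted p 0.107). It was 1.80 without wild-type library 3 (limma adjusted p 0.0345), 1.43 with the 6 libraries as separate samples (limma adjusted p 0.0338) and 1.15 with voom on recovered reads (limma adjusted p 0.0167). The authors' deposited table had TAP2 at 0.08 (SE 0.38, 95% interval −0.65 to 0.82, adjusted p 0.918) at a mean normalized count of 10.2. TAP1 stood at 7.33, 6.05 and 1.20 times the TPM of TAP2 in wild type and at 1.43, 1.37 and 2.62 times under the knockout label, so the ratio of the subunits overlapped through wild-type library 3.

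TAPBP (ENSG00000231925, chr6:33299694-33314387, minus strand) encodes tapasin, which bridges TAP and the empty heavy chain. It was at 136, 121 and 139 TPM in wild type and at 112, 98.6 and 97.1 TPM under the knockout label. The knockout-labelled libraries lay below the wild-type ones without overlap. TAPBP had a log2 change of −0.38 (SE 0.12, 95% interval −0.68 to −0.07; limma adjusted p 0.0626). It was called lower under 5 of the alternative settings, at −0.73 after median ratio scaling (limma adjusted p 0.00732), −0.57 after scaling to the 75th percentile (0.0131), −0.41 after quantile normalization (0.0476), −0.36 with 6 separate libraries (0.0336) and −0.64 with voom (0.000348), and also at −0.42 without knockout-labelled library 1 (0.0440). For poly(A) RNA its log2 fold change was −0.17 in the authors' deposited table (SE 0.14, adjusted p 0.446), the only negative value among the members.

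ERAP1 (ENSG00000164307, chr5:96760810-96808100, minus strand) encodes the aminopeptidase that trims peptides to the length a heavy chain holds. It was at 7.13, 2.61 and 3.01 TPM in wild type, which is 8, 2 and 4 reads, and at 16.03, 14.5 and 17.9 TPM under the knockout label, from 22 to 42 reads. The groups did not overlap. ERAP1 averaged 4.25 ± 2.50 TPM in wild type (SD, n = 3) and 16.6 ± 1.86 TPM under the knockout label (SD, n = 2). Its log2 change was 1.84 (SE 0.51, 95% interval 0.56 to 3.12; limma adjusted p 0.0413). ERAP1 lost its call when wild-type library 2 was left out (1.62, limma adjusted p 0.0678), without wild-type library 3 (1.69, 0.0851) or without knockout-labelled library 3 (1.73, 0.216), and under 7 other settings at the 0.05 threshold. ERAP1 in the authors' deposited table was 1.79-fold higher, a log2 fold change of 0.84 (SE 0.20, adjusted p 0.000451).

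**Figure D3:**
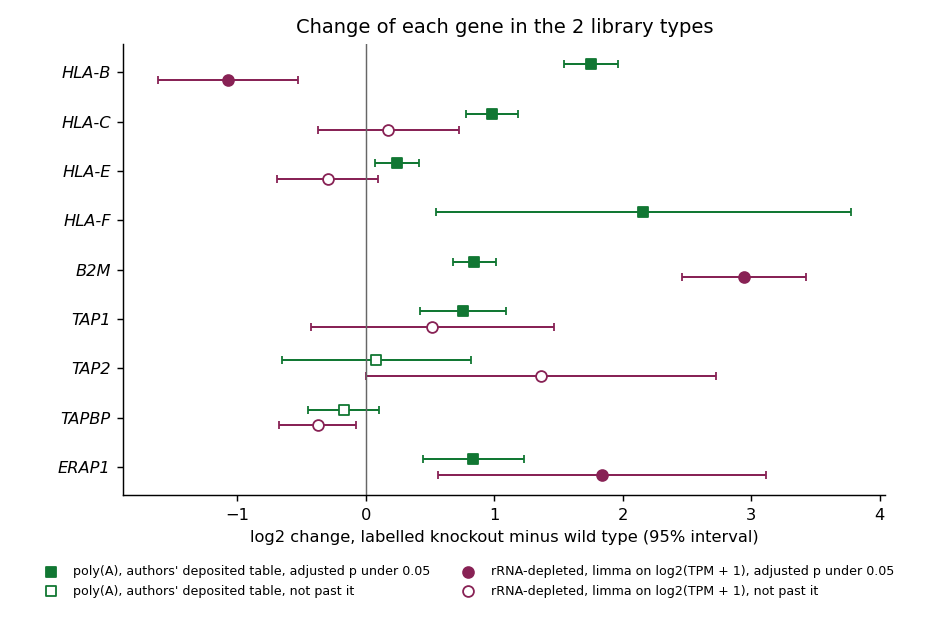
Log2 change (x axis, knockout label minus wild type, with 95% intervals) of the 9 members in the poly(A) comparison of the authors' deposited table (squares) and in the rRNA-depleted libraries (circles), filled where the adjusted p was under 0.05, with no circle for HLA-F, which was at the floor in both groups. HLA-B lies at 1.75 and −1.07 on opposite sides of 0, B2M at 0.84 and 2.94 and ERAP1 at 0.84 and 1.84 on the same side.

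Ordered by mean TPM, the wild-type libraries ran HLA-B, HLA-E, TAPBP, HLA-C, TAP1, B2M, TAP2, ERAP1 and HLA-F. The libraries of neighbours in that order overlapped for HLA-B with HLA-E, TAP1 with B2M and TAP2 with ERAP1. Under the knockout label the order was B2M, HLA-E, TAPBP, HLA-C, HLA-B, TAP1, TAP2, ERAP1 and HLA-F, with overlap between TAPBP and HLA-C and between TAP2 and ERAP1. This order holds for TPM as deposited, which follows the union of exons, and another gene length would move places in it. The summed TPM of TAP1, TAP2, TAPBP and ERAP1 overlapped, at 158 to 180 in wild type and 167 to 178 under the knockout label. Within that sum TAPBP was the largest term in every library.

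Some members share sequence with other genes, and the authors' handling of such reads is not given in the sources used here. Of the stretches of 50 bases in the principal transcript, 80.2% of those of TAP2 also occur in another gene, mostly in AL669918.1, an annotated gene that covers 32.3% of its exons on the same strand. The share was 6.79% for HLA-C, 5.13% for HLA-E, 2.54% for HLA-B, 1.70% for HLA-F, 1.07% for TAP1 and 0 for B2M, TAPBP and ERAP1. Exons on the opposite strand cover 17.8% of the exon bases of HLA-B (AL671883.2), 28.5% of HLA-F (HLA-F-AS1 among others), 9.49% of TAP1 (PSMB8-AS1) and 6.94% of ERAP1 (CAST among others). Whether the authors counted by strand is not given either. HLA genes also differ between people and lines in their alleles, and reads were assigned on a reference. The values of TAP2, HLA-B and the other heavy chains are uncertain to that extent, and the part of these overlaps in the results was not tested.

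The change in the rRNA-depleted libraries moved with the GC content of the transcript across all genes. The median log2 change was 1.24 in the tenth of genes with the lowest GC content and −0.41 in the tenth with the highest, and Spearman's correlation was −0.37 over 14669 genes, which share the same libraries. The members followed this trend only in part. HLA-C had the highest GC content (62.7%) and a change of 0.17, above those of HLA-B, HLA-E and TAPBP. B2M (40.6% GC) and ERAP1 (39.7%) had the lowest GC content and the highest changes, TAP2 (49.1%) lay between, and the heavy chains, TAP1 and TAPBP held 54.8 to 62.7% GC. Across the 9 members that correlation was −0.77, given as a description and with the fitted value of HLA-F included. Against the median of its own GC bin B2M was higher by 1.88, above 94.0% of the genes in the bin, and ERAP1 by 0.78, above 76.2%. HLA-B lay at −0.999 from the median of its bin, above 17.8% of the genes there. After removal of the GC trend the change of B2M was 1.99 (limma adjusted p 0.0010), that of HLA-B −0.97 (limma adjusted p 0.0319) and that of ERAP1 0.84, no longer past the threshold (limma adjusted p 0.267). The correlation between GC content and fold change in the authors' deposited table was −0.17 over 13948 genes and 0.43 over the 9 members.

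**Figure D4:**
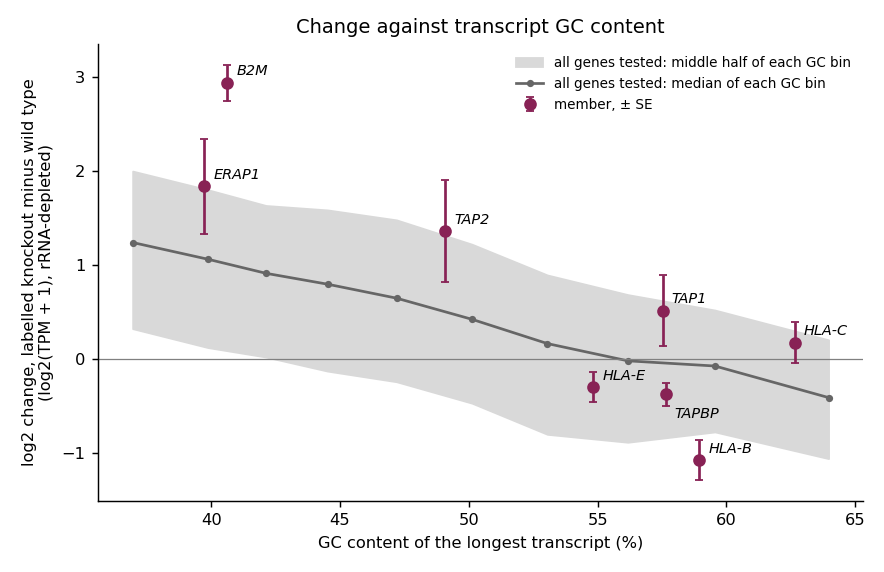
Log2 change in the rRNA-depleted libraries (y axis, knockout label minus wild type) against the GC content of the longest transcript (x axis, %), with members ± SE, the line for the median of each GC bin of all genes tested and the band for its quartiles. B2M lies above the band, HLA-B below it, and ERAP1 at its upper edge at the low end of GC content; HLA-F, at the floor in both groups, is not drawn.

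The letters GGACT, a form of the m6A consensus that is often methylated, were counted on the sense strand of the principal transcripts, and methylation itself was not measured here. The transcripts of B2M and HLA-C held 1 such match each (0.587 and 0.651 per kb) and that of HLA-E 5 (1.92 per kb). The others were at 0.546 per kb for ERAP1, 0.612 for HLA-F, 0.801 for TAP2, 1.06 for TAPBP, 1.29 for HLA-B and 1.35 for TAP1. The median over the longest transcripts of 19922 protein-coding genes was 0.927 per kb.

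Of the chaperones and other endoplasmic reticulum factors around the members, 3 of 7 tested were higher and 2 lower in the rRNA-depleted libraries, and the authors' deposited table had 1 of 7 higher and 3 lower. Among all genes, 22.9% were higher and 12.4% lower in the rRNA-depleted libraries, and 9.55% and 10.3% in the authors' deposited table. ERAP2, the second trimming aminopeptidase of the compartment, was higher in both, at 4.77, 5.58 and 5.65 TPM in wild type and 20.8, 32.1 and 20.01 TPM under the knockout label (log2 change 1.93, limma adjusted p 0.0115) and at 0.93 in the authors' deposited table (adjusted p 6.09e-11). LNPEP, an endosomal relative of ERAP1, was higher in the rRNA-depleted libraries by a log2 change of 2.30 (limma adjusted p 0.0102). CALR, the chaperone calreticulin that holds the heavy chain with tapasin, was lower in both, by a log2 change of −1.01 in the rRNA-depleted libraries (limma adjusted p 0.00276) and of −0.22 in the authors' deposited table (adjusted p 0.0154). CANX, which binds the heavy chain before B2M does, was lower at −0.23 in the authors' deposited table (adjusted p 0.00115) and stood at 0.45 in the rRNA-depleted libraries (limma adjusted p 0.0908).

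Among the genes that supply peptides, 5 of 12 were higher and 2 lower in the rRNA-depleted libraries, while the authors' deposited table had 5 higher and 1 lower. The shares over all genes were 22.9% higher and 12.4% lower in the former, and 9.55% and 10.3% in the latter. PSME1 and PSME2, the subunits of the interferon-induced proteasome activator PA28, were higher in both, with log2 changes of 2.42 and 2.95 in the rRNA-depleted libraries (limma adjusted p 0.00112 and 0.00125) and of 0.58 and 0.34 in the authors' deposited table (adjusted p 2.86e-13 and 0.0398). LAP3, a cytosolic aminopeptidase, was higher at 0.93 (limma adjusted p 0.0194), and at 1.42 in the authors' deposited table (adjusted p 1.76e-75). TPP2, another cytosolic peptidase, rose by 2.83 in the rRNA-depleted libraries (limma adjusted p 0.0170) from 1 to 7 reads in a wild-type library and was not called in the authors' deposited table. PSMB8, an immunoproteasome subunit whose gene lies next to TAP1, was called in opposite directions like HLA-B: lower at −0.87 in the rRNA-depleted libraries (limma adjusted p 0.0216) and higher at 0.58 in the authors' deposited table (adjusted p 0.00797). PSMB9, another immunoproteasome subunit, was higher at 1.15 in the authors' deposited table (adjusted p 4.64e-07) and stood at 0.27 in the rRNA-depleted libraries (limma adjusted p 0.569).

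Of 11 transcriptional regulators of class I genes, 2 were higher and 0 lower in each library type. Beside these counts stand 22.9% and 12.4% of all genes in the rRNA-depleted libraries, and 9.55% and 10.3% in the authors' deposited table. NFYA and CREB1, whose products bind the Y and X2 boxes, were higher in the rRNA-depleted libraries at 2.70 and 1.42 (limma adjusted p 0.0122 and 0.0411). IRF1 and IRF2 were higher in the authors' deposited table at 0.76 and 0.56 (adjusted p 0.00194 and 0.0331). NLRC5, the class I transactivator, stood at 0.79 in the authors' deposited table (adjusted p 0.118) at a mean normalized count of 10.1 and did not pass in either type.

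Of 8 genes for turnover and quality control of class I chains and other membrane proteins, 5 were higher and 0 lower in the rRNA-depleted libraries, while the authors' deposited table had 1 higher and 0 lower. All genes gave 22.9% higher and 12.4% lower in the former, and 9.55% and 10.3% in the latter. UBE2J1, SEL1L and HM13, which act in the removal of proteins from the endoplasmic reticulum, had log2 changes of 1.95, 1.67 and 1.25 in the rRNA-depleted libraries (limma adjusted p 0.0120, 0.00964 and 0.00353). SYVN1, the ubiquitin ligase of that route, was higher at 0.94 (limma adjusted p 0.0456) and at 0.55 in the authors' deposited table (adjusted p 0.0136).

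**Figure D5:**
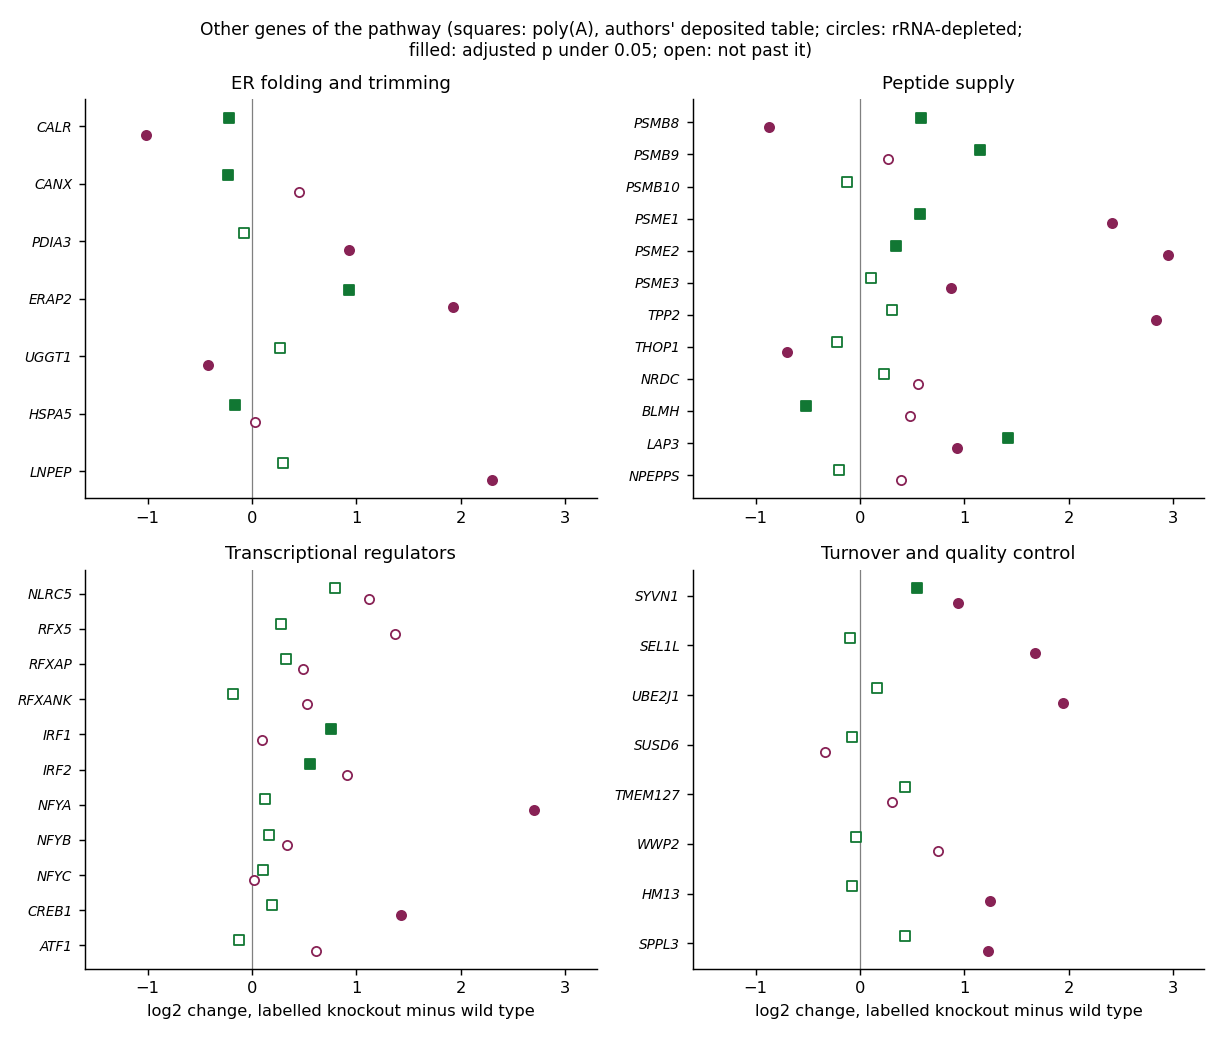
Log2 change (x axes, knockout label minus wild type) of the other genes of the pathway in 4 lists, with squares for the authors' deposited table and circles for the rRNA-depleted libraries, filled where the adjusted p was under 0.05. PSME1 and PSME2 are filled to the right of 0 in both, PSMB8 is filled on both sides of 0, and PSMB10, at the floor in both groups, has no circle.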

How the data were processed

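RNA was sequenced in 16 libraries, 10 of poly(A) and 6 of rRNA-depleted RNA. The submitters' processing notes name Trimmomatic, STAR, DESeq2 and hg38, and the counting tool, annotation, versions and use of strand are not given in the sources used here. The authors deposited TPM for the 6 rRNA-depleted libraries. For the poly(A) libraries, per the file headers, the authors deposited a normalized count averaged over all poly(A) libraries (a signal), a log2 fold change and its standard error, a Wald score, and p-values with and without adjustment, used as given. A positive log2 fold change in that deposited table was taken as higher under the knockout label, because the signs of the library types then matched for 67.3% of the 1327 genes called in both, and for 91.5% of the 177 of them that changed by 1 or more on the log2 scale in each.

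The test was limma 3.58.1 (R 4.3.3; lmFit and a trended eBayes) on log2(TPM + 1), which understates the change of low genes. Genes with at least 1 TPM in 3 libraries entered, with Benjamini-Hochberg adjustment and a threshold of 0.05. With 3 against 2 samples an exact permutation test of 1 gene cannot go below 0.2. Whole reads were recovered from TPM and GENCODE 29 exon lengths (56927 of 60669 genes had one), and 90.9% of the values above 0 were whole to within 0.02 reads. HLA-B, HLA-C, B2M and TAP1 needed a common factor on their length. Intervals and floors cover counting error only where they come from reads. Groups came from the sample titles, and no column was left unused.

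The 9 members and the gene lists were chosen with earlier results of these data known. Named were all members, METTL3, in each list and library type the 3 genes with the largest change past the threshold, list genes whose role a sentence needed, and the 5 genes most like B2M. Some genes of the lists are not reported here and were left out of their counts. The fit was checked on simulated data. Alternatives covered pseudocount, filter, scaling, GC content, depth, threshold, the replicate block, voom on recovered reads and leaving out each library.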

Additional observations from a re-analysis of the deposited data

How the results depend on the processing

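Over the 13 other settings and the 6 fits without 1 library, B2M was called higher in all, at 2.84 to 3.11 on the log2 scale without 1 library. HLA-B was lower throughout and lost its call without knockout-labelled library 3 and at an adjusted p under 0.01. The log2 change of HLA-C turned to −0.18 (median ratio scaling), −0.021 (75th percentile), −0.079 (voom), −0.10 (reads thinned to the shallowest library) and −0.013 (without wild-type library 3; up to 0.30 without another), that of TAP1 to −0.024 (thinned) and that of HLA-F to 0.18 (without knockout-labelled library 3; −0.79 without wild-type library 2), a fitted value at the floor that is no measure of change. The cause was not tested.

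In place of 3 members, 4 were called after median ratio or 75th percentile scaling (with 4863 and 4956 of all genes called), 5 with 6 separate libraries and 6 with voom. The number was 2 with a pseudocount of 0.1 (4629 of all genes called), no filter (4415), the GC trend removed (3896) or thinned reads (3543). At an adjusted p under 0.01 the number was 1 (B2M). It was 2 to 4 without 1 library other than knockout-labelled library 3. The larger numbers came with more calls among all genes in 2 of these settings, 6880 with 6 separate libraries and 7373 with voom. In place of 5220 genes, 2242 were called at an adjusted p under 0.01 and 1663 (without knockout-labelled library 3) to 5185 without 1 library. The 2782 genes called in the authors' deposited table became 1811 at an adjusted p under 0.01 and 647 with a log2 fold change of 1 or more in size, where 2 members remained, HLA-B and HLA-F. Same-numbered libraries deviated together with r of 0.02, −0.02 and 0.01, so they share only a number; with the replicate block, 3 members (2 higher, 1 lower) and 6037 genes were called. A fit that leaves 1 knockout-labelled sample assumes that it varies like the other group. Depth limits the members with few wild-type reads per library, 2 to 8 for ERAP1, 3 to 14 for TAP2, 12 to 21 for TAP1 and 12 to 25 for B2M, and no change could be measured for HLA-F.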

Other observations

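Of 6 class I-like molecules tested, 1 was higher and 0 lower in the rRNA-depleted libraries, beside 35.3% of all genes called. MICA, a ligand of the NKG2D receptor, was the one called and stood at 32.7, 17.3 and 27.6 TPM in wild type and at 71.6, 76.9 and 65.0 TPM under the knockout label (log2 change 1.44, limma adjusted p 0.0187). The authors' deposited table had 1 of 7 higher beside 19.9% of all genes called, MR1, which presents vitamin B metabolites, at a log2 fold change of 0.85 (adjusted p 0.0263). MR1 had 1 or 2 reads in each rRNA-depleted library and was not tested there. Of the MHC class II genes, HLA-DRA, HLA-DMB and CD74 were listed at 0 in all 6 libraries, and 0 of the 2 genes of that list that could be tested passed in limma, 1 of them at an unadjusted p under 0.05. That gene, the class II chain HLA-DPB1, was at 12.7, 14.8 and 17.2 TPM in wild type and at 4.804, 10.8 and 4.63 TPM under the knockout label (log2 change −1.17, limma p 0.0237, adjusted p 0.0623). HLA-DPA1 was lower in the authors' deposited table at −1.28 (adjusted p 0.0358) at a mean normalized count of 5.88. In the rRNA-depleted libraries it had 0 reads in each wild-type library and 4, 1 and 1 reads under the knockout label. It was not tested there, and those few reads lie in the other direction.

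Across the 6 rRNA-depleted libraries the genes whose log2(TPM + 1) was most like that of B2M were HMGA2, PSME3, CCT5, NDC1 and PGRMC1, each with a Pearson r above 0.999 over 6 libraries, among 12899 genes with a mean of at least 5 TPM. A difference between the labels alone gives high values of r, and 2023 genes reached 0.95. PSME3, a proteasome activator subunit, stood at 74.2, 70.3 and 74.4 TPM in wild type and at 140, 139 and 129 TPM under the knockout label (log2 change 0.87, limma adjusted p 0.00505), a smaller change than that of B2M.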
